A study of Mus musculus with 48 samples.

Results

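Off-target junctions in the VH region of Igh, the mouse immunoglobulin heavy chain locus, are joints of a JH segment to VH-region DNA that the authors placed in their off-target lists. They were taken from 14 such lists, 1 per library, by keeping joints on chromosome 12 from the start of the lowest to the end of the highest annotated VH gene (NCBIM37, also called mm9, chr12:114812453-117238672). Joints of a library with the same position, strand and bait end were counted as 1 distinct junction. The region held 2777 of the 39455 distinct off-target junctions (7.04%). Merging neighbours of the same strand within 20 bp gave 589 sites, of which 351 held 1 junction, 160 held at least 3 and 38 held at least 10.

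The joints were mapped by LAM-HTGTS, in which a primer beside a bait segment, here JH1 to JH4, is extended through the joint into the DNA joined to it, the prey. Cultured bone marrow (BM) pro-B cells of C57BL/6 mice gave 4 WT libraries (WT BM) and 4 libraries labelled with an Igh inversion (INV BM). They were purified on B220 beads and grown in the cytokines IL-7 (at 10 ng/mL) and SCF (at 2 ng/mL). A v-Abl transformed pro-B line labelled Wapl-degron, OsTIR1 and Emu-Bcl2 gave 3 libraries without (Untreated) and 3 with IAA and doxycycline (IAADox). It received RAG1/2 by retrovirus and 3 uM STI-571, an Abl kinase inhibitor, for 4 days, and the IAADox cells also had 150 uM IAA and 2 mg/mL Dox for 3 of those days. The labels list RAG1 deficiency in all 4 groups and give no source of RAG for the BM cells. They give no number of mice and no number of clones, so p-values measure only the spread between these libraries, which may be technical. Wapl releases cohesin from chromatin, and a degron-tagged protein is lost on auxin (IAA). The comparisons ask how the orientation of the locus and the loss of Wapl bear on which VH-region sequences RAG joins.

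RAG cuts at recombination signal sequences, each a heptamer (CACAGTG at best), a spacer of 12 or 23 bases and a nonamer (ACAAAAACC at best). The CAC of the heptamer is the most conserved part, and the coding end that enters the joint lies just before it. A sequence that resembles such a signal but flanks no gene segment is called a cryptic signal. Igh lies on the minus strand of the chromosome, with JH at the low and VH at the high coordinates, so in the normal locus a deletional joint of VH coding ends to JH gives plus-strand prey. RAG bound at the recombination centre is known to find cryptic signals by scanning chromatin that cohesin moves past it, and such scanning favours signals in convergent orientation.

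The sequences at the sites described most are shown first because they let the heptamer be read beside the counts. Each line gives the 20 bases before the heptamer, the heptamer in capitals and the next 32 bases, 5′ to 3′ in the direction from the prey to the side left out of the joint. That is the reference plus strand for the minus-strand sites and the reference minus strand for the plus-strand sites. At 117193794 and 117153727 the heptamer began 7 and 5 bases beyond the most frequent junction, so the last of the 20 bases there lay on the side left out. The first 5 lines are minus-strand sites and the others plus-strand sites.
Minus-strand site 117193794, chr12:117193782-117193840: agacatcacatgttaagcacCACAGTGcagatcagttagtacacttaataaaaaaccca
Minus-strand site 117153727, chr12:117153713-117153771: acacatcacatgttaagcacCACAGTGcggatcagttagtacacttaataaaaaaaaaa
Minus-strand site 114835527, chr12:114835508-114835566: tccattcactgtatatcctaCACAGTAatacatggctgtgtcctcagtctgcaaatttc
Minus-strand site 117150322, chr12:117150303-117150361: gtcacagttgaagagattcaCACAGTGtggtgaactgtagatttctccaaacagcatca
Minus-strand site 116843830, chr12:116843811-116843869: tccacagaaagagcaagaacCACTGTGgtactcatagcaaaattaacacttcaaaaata
Plus-strand site 116134449, chr12:116134410-116134468: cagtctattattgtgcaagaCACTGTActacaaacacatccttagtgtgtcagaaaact
Plus-strand site 116047632, chr12:116047593-116047651: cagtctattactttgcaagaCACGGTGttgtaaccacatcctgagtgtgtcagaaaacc
Plus-strand site 116771963, chr12:116771924-116771982: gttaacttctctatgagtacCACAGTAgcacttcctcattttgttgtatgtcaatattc
Plus-strand site 116561077, chr12:116561038-116561096: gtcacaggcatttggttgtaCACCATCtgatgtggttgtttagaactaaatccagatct

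Depth differed widely between libraries. The off-target lists held 425 to 6502 distinct junctions each, and the Untreated libraries had only 4, 14 and 16 of them in the VH region. The VH region of the IAADox libraries held 88, 105 and 152, of WT BM 300, 54, 56 and 245, and of INV BM 551, 367, 389 and 436. Some IAADox libraries shared joints: of 257 joints told apart by position, strand, bait end and inserted bases, 71 (27.6%) were in more than 1 of the 3 libraries and 19 in all 3. INV BM shared 10 of 1993, WT BM and Untreated shared 0, and no joint was in 2 groups. Of the 71 shared IAADox joints, 34 had at least 10 inserted bases. Whether shared joints were 1 event seen again or arose separately was not tested. The IAADox replicates may therefore not count separate joining events throughout, and the main IAADox values are given with and without the shared joints. The libraries carry no molecular identifiers, so intervals cover counting error only.

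Most VH off-target junctions lay on 1 strand, and the strand differed between the WT and the inverted locus. The minus-strand share of distinct VH off-target junctions was 8.0%, 13%, 3.57% and 7.76% in the 4 WT BM libraries and 93.3%, 96.5%, 96.4% and 95.9% in the 4 INV BM libraries. Every INV BM library lay above every WT BM library. The means were 95.5% ± 1.5 (SD, n = 4) and 8.07% ± 3.84 (SD, n = 4), and the 2-sided exact permutation test gave p = 0.0286, the smallest that 4 against 4 allows, and 0.0857 after Benjamini-Hochberg adjustment over the 6 shares tested, which misses 0.05. Within sequencing run 3, with 3 INV BM and 2 WT BM libraries, the shares were 96.2% and 8.27%, and within run 6, with 1 and 2 libraries, they were 93.3% and 7.88%. Run numbers were assigned here from the read names.

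In the Wapl-degron line most VH off-target joints were on the plus strand, as in WT BM, with and without IAADox. IAADox libraries had 4.55%, 6.67% and 6.58% on the minus strand and Untreated libraries 0%, 21.4% and 6.25%. Their means, 5.93% ± 1.20 and 9.23% ± 11 (SD, n = 3 each), overlapped and did not differ beyond the spread (2-sided exact permutation p = 0.9, adjusted p = 0.9). Without junctions at which a joint was shared between libraries of the group, the IAADox mean was 5.06% ± 4.48, and the Untreated libraries had none to leave out. With 0 of 4 minus-strand junctions, the Untreated replicate 1 share has an exact 95% upper limit of 60.2%.

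**Figure D1:**
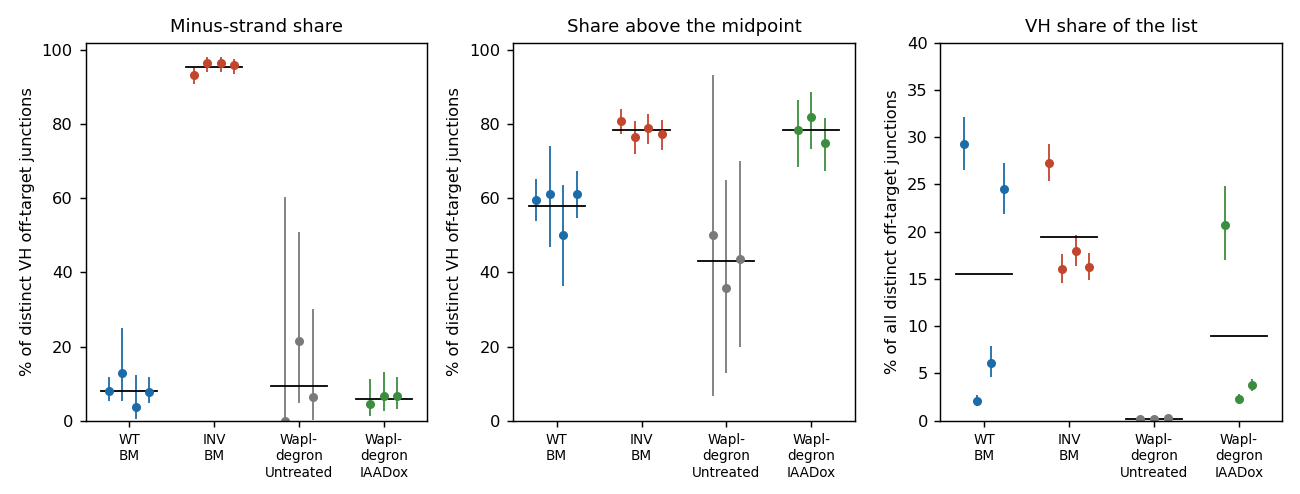
Points are the 14 libraries with exact 95% binomial intervals, which cover counting error only, and black lines are group means. The y axes give the minus-strand share and the share above the midpoint in % of distinct VH off-target junctions and the VH share in % of all distinct off-target junctions. All 4 INV BM libraries lie between 93.3% and 96.5% on the minus-strand axis, and the 4 WT BM libraries between 3.57% and 13%.

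The part of the VH region above its midpoint (position 116025562) held most off-target junctions in INV BM, IAADox and, less strongly, WT BM. It is the part far from JH in the reference order, and so in WT BM and, as far as the labels say, in the Wapl-degron line. The labels do not give the ends of the inversion, and in an inverted VH region the same sequences lie nearer to JH. The INV BM and WT BM shares thus compare the same reference sequences, not the same distance from JH. The share above the midpoint was 59.7%, 61.1%, 50% and 61.2% in WT BM and 80.9%, 76.6%, 78.9% and 77.3% in INV BM, without overlap. The means were 58.0% ± 5.38 and 78.4% ± 1.94 (SD, n = 4 each, 2-sided exact permutation p = 0.0286, adjusted p = 0.0857). Within run 3 they were 77.6% in INV BM and 55.6% in WT BM, and within run 6 80.9% and 60.4%. The difference of 20.4 percentage points was 10.3 without the most used site and 31.5 without junctions within 200 bp of a VH gene. It was 31.6 on the minus strand alone, where WT BM had only 24, 7, 2 and 19 junctions (48.0% ± 24.8 above the midpoint). On the plus strand alone it turned to -5.27, where INV BM had only 37, 13, 14 and 18 (54.3% ± 7.67). With both strands, the region in 3 equal parts and the boundary after part 1 or part 2, the difference was 9.91 and 44.2.

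IAADox libraries had shares above the midpoint of 78.4%, 81.9% and 75%, and Untreated libraries 50%, 35.7% and 43.8%. The groups did not overlap, with means of 78.4% ± 3.45 and 43.2% ± 7.16 (SD, n = 3 each). The 2-sided exact permutation p was 0.1, the smallest that 3 against 3 allows (adjusted p = 0.15). Without joints shared between libraries the IAADox share was 80.1% ± 4.34. The only run with both groups, run 4, held 1 IAADox library at 81.9% and the 3 Untreated libraries.

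The region was also split into 4 equal segments, numbered from low to high coordinates. Plus-strand junctions of WT BM were mostly in segments 2 and 3, with 31.8% ± 7.03 and 38.8% ± 2.78 of all VH off-target junctions. In IAADox they were mostly in segments 3 and 4, with 38.4% ± 4.34 and 36.7% ± 0.711, or 31.5% ± 5.81 and 45.6% ± 7.09 without joints shared between libraries. Minus-strand junctions of INV BM were mostly in segment 4, with 67.3% ± 1.51, and 587 of those 1175 junctions were at the 1 site at 117193794. The few plus-strand junctions of Untreated cells had their largest mean share, 40.8% ± 11, in segment 1.

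**Figure D2:**
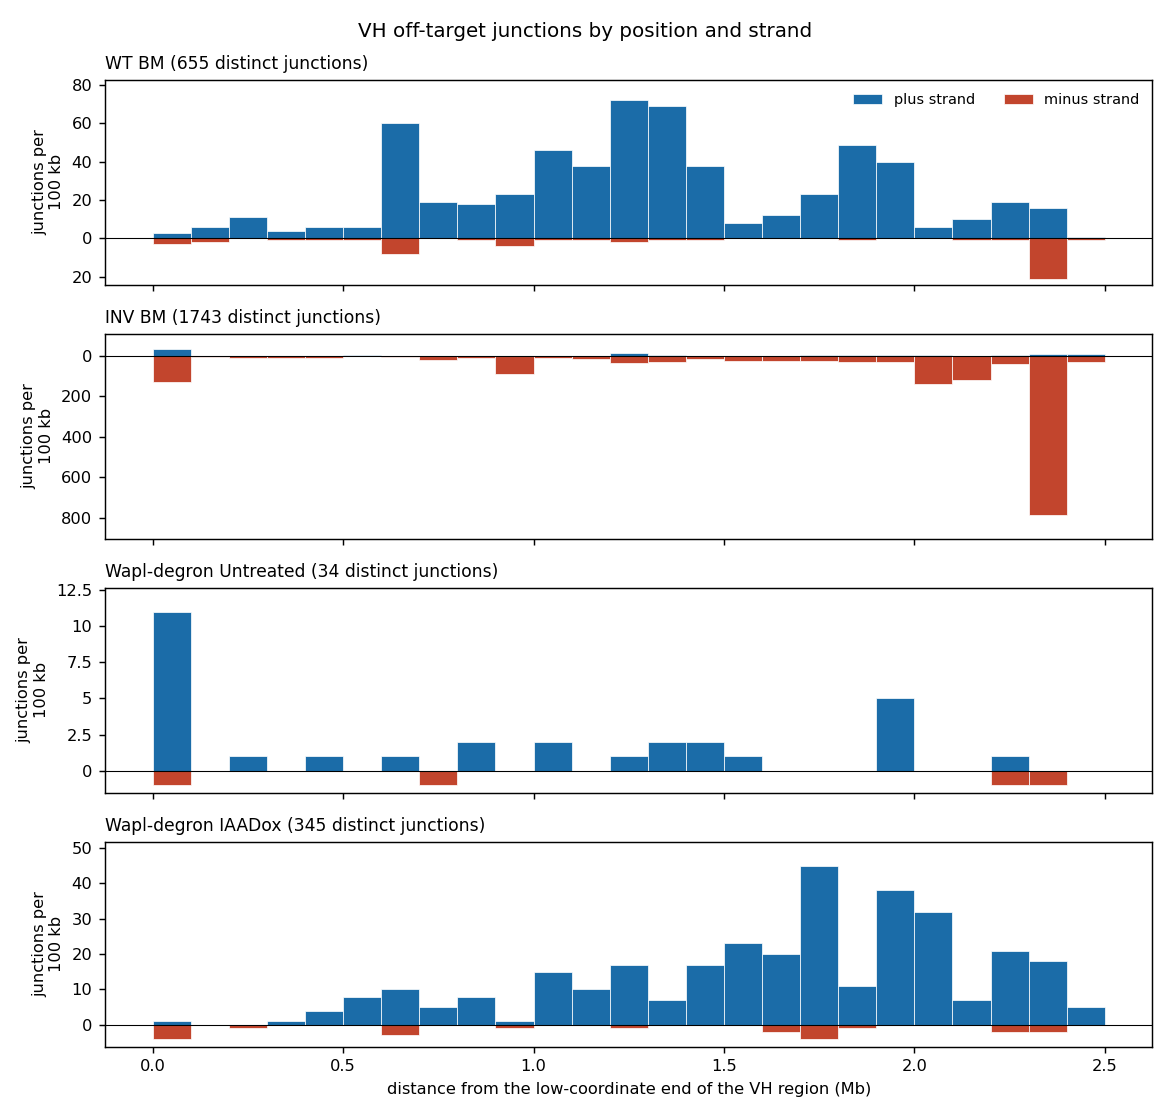
Distinct VH off-target junctions per 100 kb by distance from the low-coordinate end of the VH region in Mb, summed over the libraries of each group, with plus-strand prey upward and minus-strand prey downward. The y scale differs between panels. INV BM junctions mostly point down and are most frequent toward the high-coordinate end, where 1 site holds 587 of them. IAADox junctions mostly point up, with most above the midpoint.

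The share of the off-target list that lay in the VH region varied widely among WT BM libraries. It was 29.3%, 2.09%, 6.13% and 24.5% in WT BM and 27.3%, 16%, 17.9% and 16.3% in INV BM, with means of 15.5% ± 13.4 and 19.4% ± 5.34 (SD, n = 4 each) that overlapped (2-sided exact permutation p = 0.571, adjusted p = 0.686). The difference of 3.90 percentage points changed sign without WT BM replicate 2 (-0.57) or without the most used site (-1.34). Junctions outside chromosome 12 took 12.2% to 87.0% of the WT BM lists and 2.87% to 40.01% of the INV BM lists. With chromosome 12 alone as the denominator the shares were 27.2% ± 0.864 in INV BM and 24.6% ± 7.74 in WT BM (SD, n = 4 each, 2-sided exact permutation p = 0.571, adjusted p = 0.686). Per 100000 lines of the full list, VH off-target junctions numbered 101 ± 30.9 in INV BM (SD, n = 4) and 30.3 ± 38.6 in WT BM (SD, n = 3). The libraries spanned 70.2 to 139 and 5.51 to 74.8, which overlapped, and this measure was not tested. Within run 3 the VH shares were 16.8% in INV BM and 4.11% in WT BM, and within run 6 27.3% and 26.9%.

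In the Wapl-degron line VH off-target junctions took 20.7%, 2.30% and 3.74% of the IAADox lists and 0.146%, 0.216% and 0.246% of the Untreated lists, without overlap. The means were 8.92% ± 10.2 and 0.203% ± 0.0514 (SD, n = 3 each, 2-sided exact permutation p = 0.1, which is the lowest 3 against 3 can reach, adjusted p = 0.15). IAADox replicate 1, with the fewest distinct junctions (425), had the highest share, and the difference of 8.71 percentage points was 2.82 without it. With shared joints left out in the VH region alone, and kept in the rest of the list, the difference was 3.91. Within run 4 the shares were 2.30% and 0.203%. Per 100000 lines of the full list there were 82.8 ± 39.2 in IAADox and 1.75 ± 0.189 in Untreated (SD, n = 3 each, not tested). Of D and VH off-target junctions together, those in the VH region took 47.9% ± 0.790 in IAADox and 1.02% ± 0.295 in Untreated.

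The share of off-target junctions beside a CAC was several times that of all positions of the region. On the side not held in the joint, a CAC began within 10 bases of 70.8% of the 603 plus-strand junctions in WT BM, 93.4% of the 1661 minus-strand junctions in INV BM, 86.7% of the 324 plus-strand junctions in IAADox and 76.7% of the 30 in Untreated. Over all positions of the region the share was 13.7% on the plus and 13.6% on the minus strand. The CAC began at the junction itself for 27.9% of plus-strand junctions in WT BM, 33.6% in IAADox and, on the minus strand, 21.4% in INV BM, against 1.48% and 1.45% of all positions. By library and over both strands, the share within 10 bases averaged 69.9% ± 5.70 in WT BM, 91.4% ± 2.01 in INV BM (SD, n = 4 each), 80.4% ± 18.8 in Untreated and 84.6% ± 1.51 in IAADox (SD, n = 3 each). Without joints shared between libraries the IAADox mean was 78.3% ± 0.354.

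**Figure D3:**
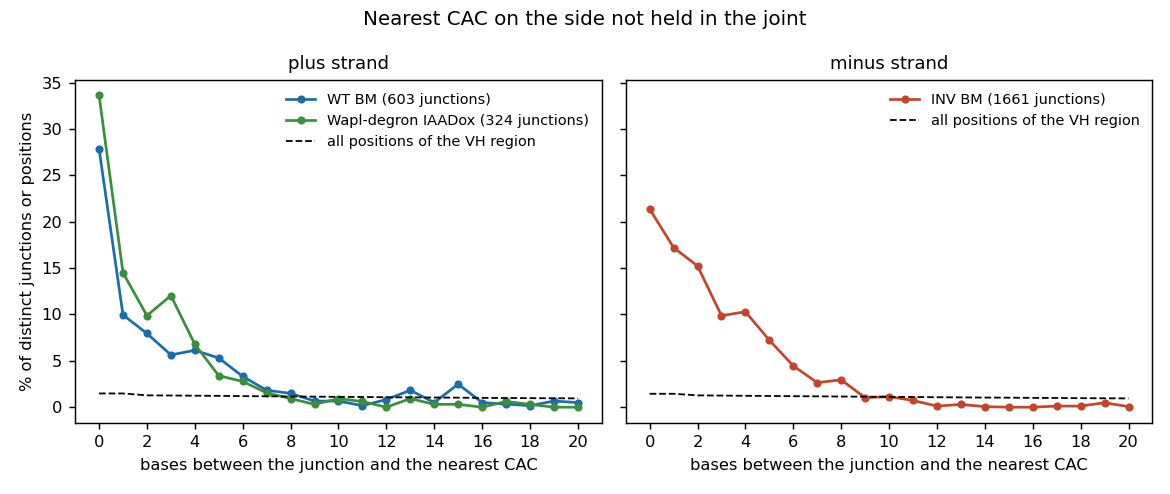
The x axis gives the bases between a junction and the nearest CAC on the side left out of the joint, and the y axis the % of distinct junctions or of all positions of the VH region. Junctions are most frequent at 0 bases, with 27.9% in WT BM, 33.6% in IAADox and 21.4% in INV BM, while all positions stay near 1.48% and 1.45% there.

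On the rarer strand the summed shares were lower and varied between libraries, and the difference was not tested. Among minus-strand junctions of WT BM 32 of 52 (61.5%) had a CAC within 10 bases on the lost side, with replicate 4 the other way round (73.7% on the minus and 68.6% on the plus strand). Among plus-strand junctions of INV BM it was 37 of 82 (45.1%), from 28.6% to 84.6% by library, and among minus-strand junctions of IAADox 10 of 21 (47.6%). In 15 of those 82, 8 of those 21 and 3 of the 52 minus-strand junctions of WT BM the prey itself began with the heptamer side, as the signal end of a cut does. That arrangement was seen in 3 of 1661 minus-strand junctions of INV BM and 10 of 603 plus-strand junctions of WT BM.

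At the level of sites, 89 of the 160 with at least 3 junctions (55.6%) had a heptamer matching at least 6 of the 7 letters of CACAGTG, against 2.76% and 2.71% of all plus- and minus-strand positions. A full match stood at 34 sites. A nonamer with at least 6 of 9 letters of ACAAAAACC behind a spacer near 23 bases followed 24% of the sites with an assigned heptamer, against 5.59% and 5.13% of assigned positions. Behind a spacer near 12 bases the share was 2.74%, against 5.94% and 4.73%. VH genes themselves carry signals with the long spacer.

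Most of these sites lay away from annotated VH genes, as most of the region does. Of the 160, 8 (5%) overlapped a VH gene and 11 (6.88%) lay within 200 bp of 1, against 1.79% and 3.62% of all positions. The distance of WT BM plus-strand junctions to the nearest VH gene had a median of 4610 bp, that of INV BM minus-strand junctions 2752 bp and that of IAADox plus-strand junctions 4511.5 bp. The INV BM median is the distance of the 1 site at 117193794, which held 587 of the 1661 junctions. In their 300 bases of prey, 19 of 76 plus-strand sites matched an annotated VH gene over at least 100 bases, and 0 of 84 minus-strand sites did. On the side left out of the joint, 1 plus-strand and 7 minus-strand sites matched a VH gene. Since 110 of the 112 VH genes lie on the minus strand, the prey side alone does not show which sites hold VH sequence. Many sites were copies of each other: 91 of 160 shared their 39 letters of heptamer, spacer and nonamer with another site at no more than 6 mismatches. These letters lie almost wholly on the side left out of the joint. Whether the prey reads of copies could be told apart was not tested, so counts may be uncertain between copies.

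The most used site, on the minus strand at 117193794, lay between Ighv1-82 and Ighv1-83, 2752 bp from Ighv1-82, and held 608 junctions. Its heptamer was CACAGTG, followed by a nonamer matching at 7 of 9 letters. It had 171, 134, 143 and 139 distinct junctions in the INV BM libraries and 8, 1, 1 and 9 in WT BM, with 1 in Untreated replicate 2, 1 in IAADox replicate 2 and 0 in the other 4 libraries of that line. Every INV BM library was above every other library, and the site took 34.0% ± 3.01 of VH off-target junctions in INV BM and 2.49% ± 0.882 in WT BM (SD, n = 4 each). The log2 fold change of INV BM over WT BM was 4.19 ± 1.01 (SE, limma voom adjusted p = 0.00521). None of its joints was found in both groups. A copy at 117153727 had 47 junctions, all in INV BM, and the family of 4 such sites held 661 junctions, 640 of them in INV BM.

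Sites could be tested for INV BM against WT BM where they had at least 10 distinct junctions in those libraries. Of 31 tested, 27 (87.1%) passed an adjusted p of 0.05 in limma voom, 16 (51.6%) higher and 11 (35.5%) lower in INV BM, and the libraries of the groups did not overlap at 21 (67.7%). A site could pass the minimum through 1 group alone: 13 of the 18 minus-strand sites were at 0 in WT BM and 7 of the 13 plus-strand sites at 0 in INV BM. That the 16 higher sites were on the minus and the 11 lower sites on the plus strand therefore restates the strand shares and is no support for them. The median over the 31 sites was 1.67, against 2.75 for the minus-strand and -3.65 for the plus-strand sites. Scaled to VH junctions in place of all off-target junctions, that median was 0.38 and 9 sites were higher and 13 lower, with 1 minus-strand site turned negative. With sites of at least 3 junctions, 43 of 127 were called, 15 higher and 28 lower, including 1 minus-strand site that was lower, and 4 of 45 plus-strand sites were positive and 4 of 82 minus-strand sites negative.

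**Figure D4:**
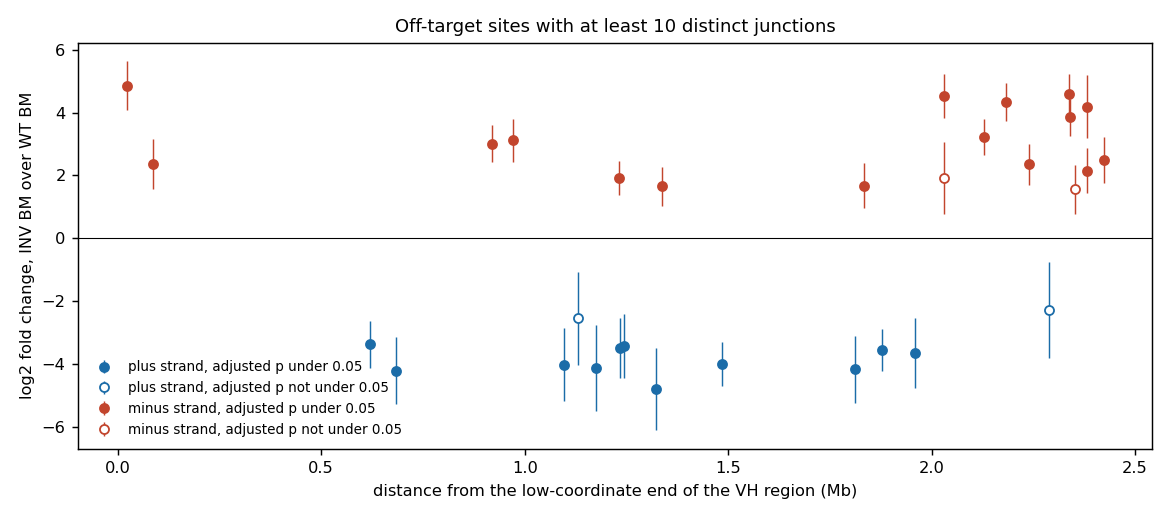
Each point is 1 of 31 sites with at least 10 distinct junctions, by distance from the low-coordinate end of the VH region in Mb (x) and log2 fold change of INV BM over WT BM with its SE (y). The 18 minus-strand sites are all above 0 and the 13 plus-strand sites all below 0, and filled points passed an adjusted p of 0.05.

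The minus-strand site 114835527 lay 130 bp from Ighv5-4, near the low-coordinate end of the region, and its heptamer was CACAGTA. The INV BM libraries had 26, 27, 27 and 30 junctions, WT BM 2, 0, 0 and 0, Untreated 0, 1 and 0, and IAADox 1, 0 and 2. The BM groups did not overlap (log2 fold change 4.86 ± 0.782, SE). The site passed the minimum for the test only through INV BM, so no p-value is given. The site at 114899848, within 200 bp of Ighv5-9, had the same 59 printed letters and 18 junctions.

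The site at 117150322, 233 bp from Ighv1-80, had 23, 14, 19 and 25 junctions in INV BM and 0 in each library of the other 3 groups. Against a floor of 3 counts per library it was at least 3.43-fold higher in INV BM than in WT BM, or 2.90-fold without WT BM replicate 2. Sites with under 10 junctions in a group, among them those at 0, passed the minimum only through the other group. No p-value is given for them here or below. The site at 116843830, between Ighv1-67 and Ighv1-69, had 38, 19, 10 and 16 junctions in INV BM and 0 in each other library. It was at least 3.64-fold higher, or 2.43-fold without INV BM replicate 1. Both were thus seen in INV BM libraries and at 0 counts elsewhere, where depth limits what a 0 shows.

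Plus-strand sites led in WT BM. The site at 116047632, 7678 bp from the nearest annotated VH gene Ighv1-30, had 22, 6, 6 and 11 junctions in WT BM and 5, 2, 2 and 0 in INV BM. It had 0, 0 and 1 in Untreated and 1, 2 and 0 in IAADox. WT BM counts were above INV BM counts in every library, but as shares of the list the groups overlapped (log2 fold change -3.49 ± 0.955, SE). Scaled to VH junctions the log2 fold change was -3.76. The site took 8.41% ± 3.12 of VH off-target junctions in WT BM and 0.492% ± 0.373 in INV BM. Its prey matched Ighv1-19 at 91.7% over 300 bases, so it resembles a VH gene that the annotation used here does not list.

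The site at 116134449 lay in an exon of Ighv1-37 and held the heptamer CACTGTA. Its prey matched Ighv1-37 at 100% over 300 bases from the junction on, and the heptamer began at the junction. By the definition above this signal flanks a gene segment and is not cryptic. WT BM libraries had 28, 1, 4 and 24 junctions, INV BM 0, 1, 0 and 0, Untreated 0, 2 and 0, and IAADox 1, 0 and 2. WT BM replicates 1 and 4, of run 6, were high and replicate 2, of run 3, low. The groups overlapped as shares of the list (log2 fold change -4.81 ± 1.31, SE). Scaled to VH junctions the log2 fold change was -5.89. The site made up 7.03% ± 3.64 of VH off-target junctions in WT BM and 0.0681% ± 0.136 in INV BM.

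The 3 plus-strand sites lowest in INV BM among those without overlap had no CAC in the window searched around their most frequent position. The site 185 bp from Ighv1-62-1, at 116624925, had 16, 2, 2 and 10 junctions in WT BM and 0, 1, 0 and 0 in INV BM (log2 fold change -4.17 ± 1.06, SE). The site at 115496042 had 3, 1, 4 and 13 in WT BM and 0 in every INV BM library, a bound of at least 3.90-fold lower. With WT BM replicate 4 left out the bound was 1.93-fold and the site fell below the minimum for the test. The site at 115910178 had 9, 1, 1 and 9 and again 0 in INV BM, at least 3.63-fold lower. This bound was 2.64-fold without WT BM replicate 1, where the call was lost, and 2.58-fold without replicate 4. WT BM replicates 1 and 4, which held most WT BM junctions at 116624925 and 115910178, were in run 6. Replicates 2 and 3 were in run 3. Of INV BM, replicate 1 was in run 6 and the others in run 3. Site changes were not tested within runs. The prey at 116624925 matched Ighv1-50 at 90.8% and that at 115910178 matched Ighv1-64 at 82.7%, over 303 and 300 aligned bases.

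The site found in most libraries, 11 of 14, was the plus-strand site at 116771963, 25775 bp from the nearest VH gene. It had 10, 3, 1 and 12 junctions in WT BM, 3, 0, 0 and 0 in INV BM, 1, 1 and 3 in Untreated and 3, 4 and 10 in IAADox. It was the most used site in both groups of the Wapl-degron line, with 17.0% ± 9.06 of VH off-target junctions in Untreated and 4.60% ± 1.73 in IAADox (SD, n = 3 each). INV BM was lower than WT BM by a log2 fold change of -3.65 ± 1.12 (SE), with overlap between the groups as shares of the list. The call was lost without WT BM replicate 1, which with replicate 4 was in run 6 and held most WT BM junctions of the site. Scaled to VH junctions the log2 fold change was -4.55. The site took 3.89% ± 1.69 of VH off-target junctions in WT BM and 0.136% ± 0.272 in INV BM. Its family of 11 plus-strand copies held 113 junctions, 70 of them in IAADox, 33 in WT BM and 3 in INV BM.

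**Figure D5:**
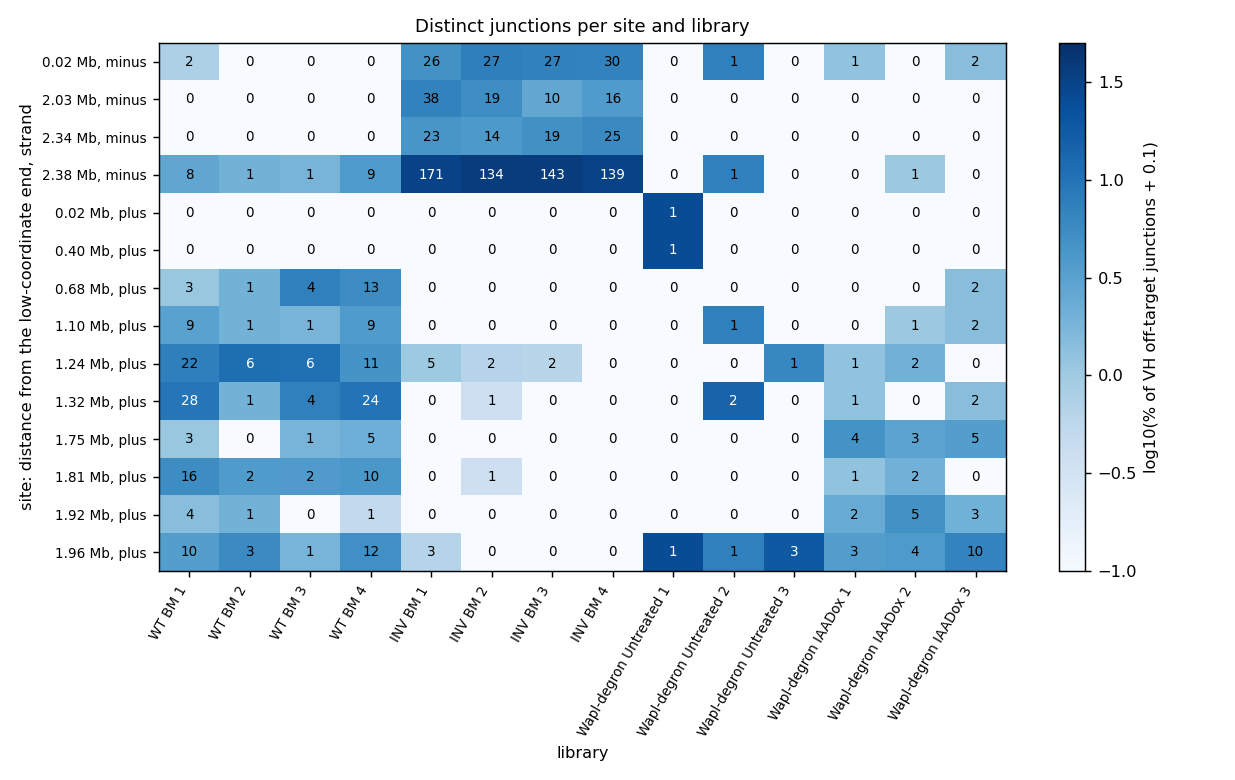
Rows are the sites named by the rule, by distance from the low-coordinate end in Mb and strand, columns are libraries, numbers are distinct junctions and colour is log10 of the percent of the library's VH off-target junctions plus 0.1. The 4 minus-strand rows hold most of their junctions in INV BM, and dark cells with a count of 1 in Untreated replicates 1 and 2 come from libraries of 4 and 14 junctions.

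For IAADox against Untreated only 3 sites had 10 distinct junctions, all on the plus strand, and limma voom called all 3 (100%) higher with IAADox. The Untreated libraries held 34 VH off-target junctions in all, so a site reached 10 almost only through IAADox, and the count is no support for a rise. The site at 116561077 had 4, 3 and 5 junctions in IAADox and 0 in each Untreated library, at least 5.60-fold higher, or 1.40-fold without IAADox replicate 1. The site at 116737184 had 2, 5 and 3 against 0, 0 and 0, at least 3.24-fold higher, or 1.36-fold without IAADox replicate 1. That library had the shortest list, so few junctions made a large share. The log2 fold change at 116771963 was 2.76 ± 1.08 (SE), and its call was lost without any 1 of the 3 Untreated libraries. Scaled to VH junctions in place of all off-target junctions, the log2 fold changes at 116561077, 116737184 and 116771963 were -0.24, -0.52 and -1.83, in the opposite direction. Over 44 sites with at least 3 junctions limma voom called 0, with 25 at an unadjusted p under 0.05. Without joints shared between libraries fewer than 3 sites passed and no fit was made. The 59 printed letters at 116561077 were also those at 116298332. Whether longer prey reads tell these copies apart was not tested, so its counts may be uncertain between them.

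Most joints carried bases between JH and the VH-region prey. None were inserted in 2.60% of distinct junctions in WT BM, 0.287% in INV BM, 14.7% in Untreated and 13.9% in IAADox. The median insert was 18 bases in WT BM and in INV BM, 12 in Untreated and 10 in IAADox. Of inserts with at least 8 bases, 73.3% in WT BM, 77.3% in INV BM, 92.6% in Untreated and 87.8% in IAADox held 8 letters of an annotated D segment, against 1.20%, 1.7%, 0% and 3.05% with the letters reversed. Letters of a D segment in the opposite orientation stood in 12.7%, 14.3%, 3.70% and 9.64%. D letters at this place are what a joint to an assembled DJH segment would hold. Without joints shared between libraries the IAADox median stayed at 10 and its D share was 83.5%. The bait was JH2 for 60.1% ± 3.74 of junctions in IAADox and 37.8% ± 32.7 in Untreated, and JH4 for 4.55% ± 2.68 and 15.2% ± 9.41 (SD, n = 3 each). Without shared joints IAADox had 54.4% ± 8.39 for JH2 and 6.25% ± 5.65 for JH4. In INV BM and WT BM the JH2 shares were 42.2% ± 2.71 and 26.9% ± 18.7, and the JH4 shares 22.7% ± 0.933 and 29.2% ± 17.9 (SD, n = 4 each). These bait shares were not tested.

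The part of all VH joints that the off-target lists held was computed for each strand and not tested between strands. In the 13 libraries with a full list, off-target junctions were 1.06% ± 0.390 of distinct plus-strand VH junctions in WT BM (n = 3) and 0.948% ± 0.260 in INV BM (n = 4). On the minus strand they were 76.6% ± 7.01 in INV BM (n = 4) and 11.5% ± 6.47 in WT BM (n = 3). In the Wapl-degron line they were 4.03% ± 0.120 of plus-strand and 13% ± 3.08 of minus-strand junctions with IAADox, and 0.663% ± 0.126 and 1.80% ± 1.81 in Untreated (n = 3 each). The minus strand held 21.1% ± 1.01 of all distinct VH junctions in the full lists of INV BM and 0.810% ± 0.0402 in those of WT BM.

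A further list, pooled by the authors from 3 libraries of a Wapl-degron line with a single Igh allele, labelled INV and given IAADox, held 46 VH off-target junctions. Of these, 42 (91.3%) were on the minus strand, 41 had a CAC within 10 bases and 18 (39.1%) were above the midpoint. The site beside Ighv5-4 had 17 of them, the site at 117193794 had 6 and that at 116843830 had 1. The pool has no replicates and was not tested.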

How the data were processed

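Junction lists (tlx) were deposited by the authors per library, aligned to mm9 with Bowtie2 per the submitters' processing notes. How the off-target lists were selected is not given in the sources used here, and all their read names were in the full list of the 13 libraries that had 1. Each line gives the junction's position, strand and bait end. Groups came from the sample labels. Sites were defined over all libraries, and VH genes are those of GENCODE vM1 on NCBIM37, with symbols updated through RefSeq synonyms for 112 of 112.

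Shares were compared by 2-sided exact permutation tests and sites by limma 3.58.1 (voom, library size the distinct off-target junctions, Benjamini-Hochberg adjustment). The site test was tested on simulated data. Alternatives were other definitions of junctions, sites, denominators and region boundaries, and leaving out each library. Named sites are, per group, the 3 with the highest mean share of VH junctions, per comparison and direction the 3 largest changes past the threshold without overlap between groups, and the 3 found in most libraries. By this rule Untreated cells also gave 115215265 and 114832725, each with 1 junction. The members and lists were chosen with earlier results of these data known. A few sites beyond the rule (copies of named sites) were chosen after their values were seen.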

Additional observations from a re-analysis of the deposited data

Results flagged for a closer look

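In groups of 4 libraries, 38 sets of values were checked for 1 library far from the other 3, and 7 stood apart. Chance gives about 1 in 20 only for values without ties. Sets in which the other 3 values were equal were flagged at any distance, so the 7 cannot be set against that rate. WT BM replicate 3 had a share above the midpoint of 50%, against 59.7% to 61.2% in the others. INV BM replicate 1 had a VH share of 27.3%, against 16% to 17.9%. WT BM replicate 1 had a median insert of 18 bases, against 19 in each of the others.

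The other 4 were sites where 1 library held the few junctions and the other 3 had 0. As percentages of the library's VH off-target junctions, 114835527 took 0.667% in WT BM replicate 1 (minus strand). The plus-strand sites 116134449 and 116624925 took 0.272% each in INV BM replicate 2, and 116771963 took 0.544% in INV BM replicate 1.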

How the results depend on the processing

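No share could pass an adjusted p of 0.05: the numbers of libraries allow 0.0571 at best over the 6 tests, so that no setting passed says nothing about stability. The VH share of INV BM minus WT BM ranged from -0.57 to 8.49 without each library and was -1.34 without the most used site. The minus-strand share of IAADox minus Untreated ranged from -7.91 to 2.81 without each library and was 1.5 without junctions near VH genes. The share above the midpoint of INV BM minus WT BM was -5.27 on the plus strand alone. The share near a CAC was 62.6% (WT BM), 79.5% (INV BM) and 77.8% (IAADox) in a window of 5 bases, 76.5%, 93.6% and 87.6% in 20 bases, and 27.4%, 7.69%, 30.7% and 22% (Untreated) inside the prey. Sites called for INV BM numbered 43 with at least 3 junctions, 10 with at least 30, and 17 to 25 without each library (17 without WT BM replicate 1). For IAADox they numbered 1 scaled to VH junctions, 0 with at least 3 junctions, 16 with every line counted, and 2 without each Untreated library. The log2 fold change at 114835527 was the largest of the 4 named minus-strand sites (4.86), but the smallest scaled to VH junctions (3.24) and with the replicate block (4.07). Scaled to VH junctions the 3 IAADox sites gave -0.24, -0.52 and -1.83. For IAADox no fit was made with at least 30 junctions, without any IAADox library or without shared joints, and the share above the midpoint on the minus strand alone was not run.

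Replicate numbers are shared by the groups. Over the tested sites, same-numbered libraries correlated at 0.04, -0.30, 0.17 and -0.05 for INV BM and WT BM (31 sites). For the Wapl-degron line they correlated at 0.62, 0.46 and 0.93, but over only 3 sites. After these values were seen, the check was repeated over sites with at least 3 junctions, which gave -0.11, -0.12, -0.03 and -0.08 (127 sites) and -0.26, -0.28 and -0.27 (44 sites). The pairing of the Wapl-degron libraries thus depends on which sites are used and was treated as not shown. With the replicate block 30 of 31 and 3 of 3 sites were called, so the choice between the checks changes no call for IAADox. Paired exact sign-flip permutation tests gave p = 0.125, the smallest that 4 pairs allow, for the minus-strand share and the share above the midpoint of INV BM against WT BM.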
